A study of Mus musculus with 9 samples.

Results

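The leukotriene and lipoxygenase genes are 9 of the 55335 genes in the deposited tables, chosen by gene symbol: Pla2g4a, Alox5, Alox5ap, Alox12, Alox15, Lta4h, Ltc4s, Cysltr1 and Ltb4r1. Each matched 1 row, and 8 of the 9 passed the filter on low counts; Alox15 did not. RNA sequencing was done on leg muscle from 9 WT mice, whose strain the labels write as c57b6l. All mice carried the model labelled hindlimb suspension ischemia, and the groups were aspirin together with a peptide hydrogel (Aspirin plus hydrogel, 3 mice), aspirin for anti-inflammation (Aspirin, 3 mice) and no treatment (Control, 3 mice). The labels give no age, sex, dose, route or time after injury, and uninjured muscle and hydrogel without aspirin were not analysed here, so the hydrogel can be compared only on top of aspirin.

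Leukotrienes are lipid mediators made mostly by myeloid cells. Cytosolic phospholipase A2 (Pla2g4a) frees arachidonic acid from membranes, and 5-lipoxygenase (Alox5), helped by its activating protein FLAP (Alox5ap), turns it into leukotriene A4. Leukotriene A4 hydrolase (Lta4h) converts that intermediate to leukotriene B4, a neutrophil attractant acting on BLT1 (Ltb4r1), whereas leukotriene C4 synthase (Ltc4s) joins it to glutathione to give the cysteinyl leukotrienes, which act on CysLT1 (Cysltr1). The other lipoxygenases oxygenate arachidonic acid elsewhere: Alox12 encodes the platelet-type enzyme and Alox15 the leukocyte-type enzyme of the mouse. Aspirin blocks cyclooxygenases, which compete for the same arachidonic acid, and cyclooxygenase-2 acetylated by aspirin makes a product that 5-lipoxygenase can turn into 15-epi-lipoxins.

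Total counts ran from 32197791 to 48170537 per library, and 18259 genes passed the filter. In keeping with the tissue label, muscle fibre markers were abundant, and their sum was 110253 to 342778 CPM (counts scaled to a common library size, here by TMM) in 8 libraries and 24935 CPM in Aspirin replicate 1. That library stood apart also by its 10 most abundant genes, which held 9.88% of all counts there and 17.7% to 30.2% in the other 8, and by lymphocyte markers, whose sum was 742 CPM there, 302 CPM in Control replicate 1 and 7.17 to 110 CPM in the other 7. For the members highest in that library, the fold change for Aspirin against Control is given with and without it. Fold changes of other pathway genes, and counts of these and of marker genes, are given only with it. Keratinocyte markers summed to 147 CPM in Control replicate 1 and to at most 3.20 CPM in the other 8 libraries. The sample names also hold a code, of unstated meaning, that no groups share, so anything it marks cannot be told apart from treatment; within Aspirin, replicate 3 carries another code than replicates 1 and 2.

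Per length, FLAP message had the highest mean of the 9 genes. Averaged over the 9 libraries, Alox5ap stood at 12.8 FPKM (fragments scaled by transcript length and library size), Lta4h at 5.04 FPKM and Ltc4s at 3.40 FPKM. Pla2g4a followed at 0.780 FPKM, Alox12 at 0.693 FPKM, Cysltr1 at 0.555 FPKM, Alox5 at 0.404 FPKM and Ltb4r1 at 0.401 FPKM. Alox15 averaged 0.00942 FPKM. The library ranges of Alox5ap, Lta4h and Ltc4s overlapped, from 2.81 to 40.7 FPKM, from 2.95 to 8.11 FPKM and from 1.05 to 5.97 FPKM, and Alox5ap was below Ltc4s in Control replicate 2 and below Lta4h in Aspirin plus hydrogel replicate 3. The ranges overlapped also for the 5 genes from Pla2g4a to Ltb4r1, so the order within each of these sets is not fixed. Alox5ap message exceeded Alox5 message in every library, by 10.2 to 81.9 times per length.

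In the comparison of Aspirin with Control, the upstream part of the pathway and the cysteinyl leukotriene receptor stood higher in aspirin-treated muscle and Alox12 stood lower, but no member passed the adjusted threshold. In that of Aspirin plus hydrogel with Aspirin the same members lay the other way, with Alox12 higher and Alox5ap, Alox5 and Cysltr1 lower. Both comparisons use the same 3 Aspirin libraries, so opposite signs in them are not separate observations. Aspirin plus hydrogel and Control libraries overlapped for each of the 8 members tested.

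Pla2g4a (ENSMUSG00000056220, chr1:149829618-149961290, minus strand of mm10, protein-coding) encodes the phospholipase that supplies free arachidonic acid. It was at 2.97, 4.35 and 2.93 CPM in the Aspirin plus hydrogel libraries (replicates 1 to 3), 11.4, 7.82 and 3.80 CPM in the Aspirin libraries, and 4.86, 0.982 and 4.10 CPM in the Control libraries. Aspirin replicates 1 and 2 were the highest of the 9, while Aspirin replicate 3 lay inside the range of the other groups. The log2 fold change was 1.21 ± 0.59 (SE) for Aspirin against Control (95% interval -0.13 to 2.56, adjusted p = 0.753 by edgeR's quasi-likelihood test). For Aspirin plus hydrogel against Aspirin it was -1.17 ± 0.59 (adjusted p = 0.470 by edgeR). Without Aspirin replicate 1 the first value was 0.80 and the second -0.76, and without Control replicate 2 the first was 0.77.

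Alox5 (ENSMUSG00000025701, chr6:116410077-116461178, minus strand of mm10, protein-coding) was a low-abundance message, with 20 to 146 counts per library. It stood at 1.21, 1.45 and 1.83 CPM in the Aspirin plus hydrogel libraries, 2.78, 2.67 and 2.20 CPM in the Aspirin libraries, and 1.70, 1.14 and 0.581 CPM in the Control libraries. In CPM all 3 Aspirin libraries lay above all 6 others, whereas the Aspirin plus hydrogel and Control libraries overlapped. The log2 fold change was 1.16 ± 0.44 for Aspirin against Control (adjusted p = 0.753 by edgeR) and -0.77 ± 0.44 for Aspirin plus hydrogel against Aspirin (adjusted p = 0.497 by edgeR). The first was 1.07 without Aspirin replicate 1. In Control replicate 3, the lowest library, the gene had 20 counts, and without it the value was 0.85.

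Alox5ap (ENSMUSG00000060063, chr5:149264767-149288153, plus strand of mm10, protein-coding) encodes FLAP, the membrane protein that presents arachidonic acid to 5-lipoxygenase. Its level was 12.9, 12.9 and 6.33 CPM in the Aspirin plus hydrogel libraries, 39.9, 28.0 and 15.6 CPM in the Aspirin libraries, and 17.6, 7.94 and 15.7 CPM in the Control libraries. The Aspirin libraries all exceeded the Aspirin plus hydrogel libraries, but Aspirin replicate 3 lay within the Control range. Its log2 fold change was -1.38 ± 0.44 for Aspirin plus hydrogel against Aspirin (adjusted p = 0.453 by edgeR) and 1.02 ± 0.44 for Aspirin against Control (adjusted p = 0.753 by edgeR). Without Aspirin replicate 1 these were -1.03 and 0.66. Its exons share 189 bases with the antisense gene Gm19719, which averaged 0.107 CPM; since the strand setting was not given, reads of such a pair cannot be told apart.

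**Figure D1:**
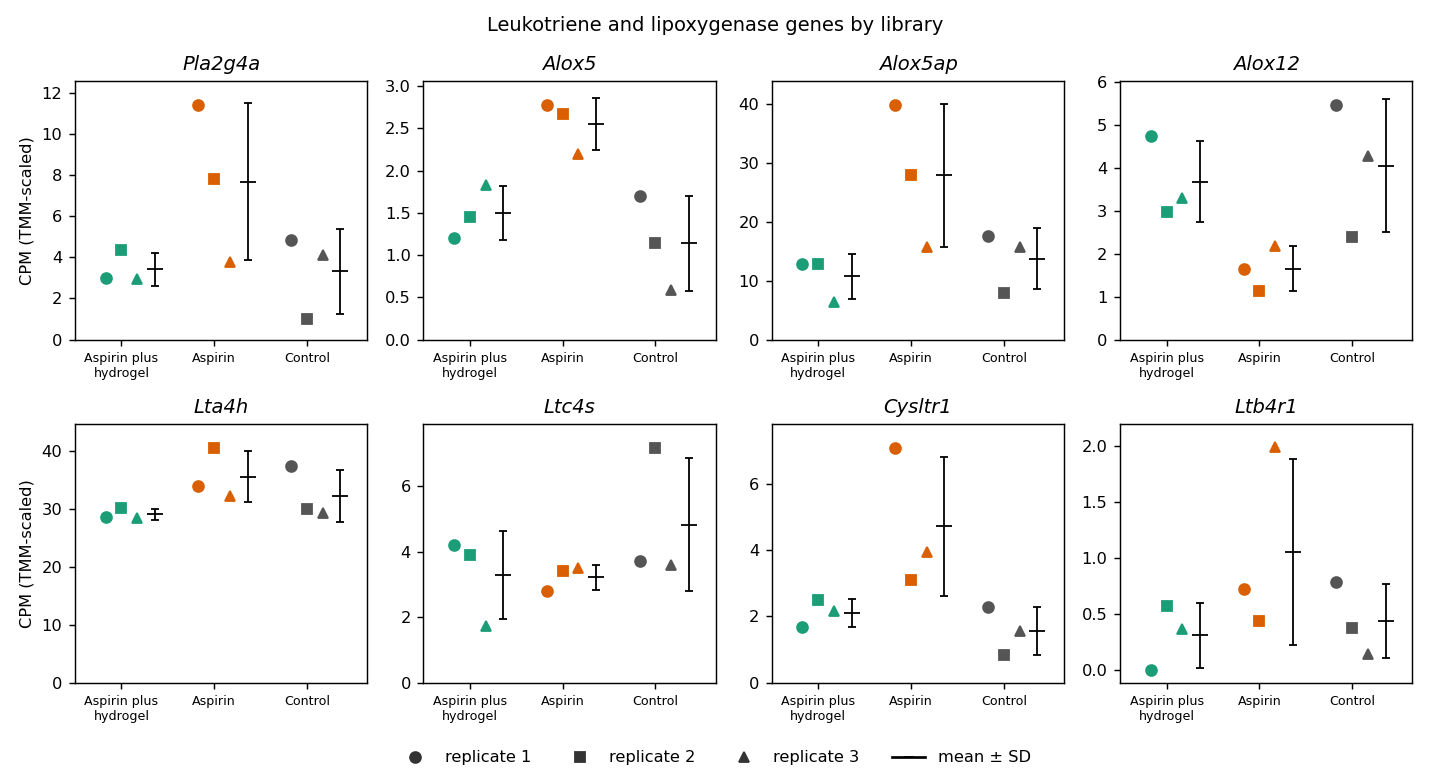
Level of the 8 members that passed the filter, in CPM on TMM-scaled library sizes (linear axes that include 0), in each Aspirin plus hydrogel, Aspirin and Control library; marker shapes give the replicate and bars the mean ± SD of 3 libraries. On this scale Alox5 and Cysltr1 are highest and Alox12 lowest in the 3 Aspirin libraries, without overlap, while Lta4h stays between 28.5 and 40.6 CPM throughout.

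Alox12 (ENSMUSG00000000320, chr11:70241457-70255353, minus strand of mm10, protein-coding) encodes platelet-type 12-lipoxygenase, which makes 12-HETE and is also present in epidermis. It was at 4.74, 2.96 and 3.30 CPM in the Aspirin plus hydrogel libraries, 1.64, 1.12 and 2.17 CPM in the Aspirin libraries, and 5.46, 2.39 and 4.27 CPM in the Control libraries. In CPM the 3 Aspirin libraries were the lowest of the 9. The log2 fold change was -1.30 ± 0.42 for Aspirin against Control (95% interval -2.25 to -0.35, adjusted p = 0.753 by edgeR). Aspirin plus hydrogel against Aspirin gave 1.16 ± 0.42 (95% interval 0.21 to 2.11, adjusted p = 0.453 by edgeR). Leaving out Aspirin replicate 1 gave -1.31 and 1.16, and leaving out Control replicate 1, the library with keratinocyte markers, gave -1.02 for Aspirin against Control.

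Alox12 is set beside the markers of platelets and of endothelium. The 9 platelet markers summed to 14.3 to 24.9 CPM in the Aspirin plus hydrogel libraries, 25.2 to 69.3 CPM in the Aspirin libraries and 20.1 to 37.1 CPM in the Control libraries. Of the 8 platelet markers tested, 1 was higher and 7 lower for Aspirin plus hydrogel against Aspirin, and 2 were higher and 6 lower for Aspirin against Control. The sum of the 8 endothelial markers lay in the same direction as Alox12 and was 294 to 458 CPM in the Aspirin plus hydrogel libraries, 208 to 281 CPM in the Aspirin libraries and 357 to 652 CPM in the Control libraries, with none of the 8 at 0 in any library. Endothelial markers were higher in 7 of 8 genes for Aspirin plus hydrogel against Aspirin and lower in 8 of 8 for Aspirin against Control. This direction was not particular to endothelium. Muscle fibre markers were higher in 12 of 12 genes in the first comparison and lower in 11 of 12 in the second, although their sums overlapped among the groups. The part of either marker set in the Alox12 result was not tested.

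The windows just upstream of the RefSeq transcription starts of Alox5 and Alox12, the pair of lipoxygenases that lay in opposite directions, are shown for comparison with that of Pla2g4a. Each is 250 bases long on GRCm38.p6 and written 5′ to 3′ on the gene's strand, from chr6:116461179-116461428 (minus) for Alox5, chr11:70255371-70255620 (minus) for Alox12 and chr1:149961291-149961540 (minus) for Pla2g4a. Capitals mark the GC box GGGCGG, bound by Sp1, and the core GAGGAA of sites of the myeloid factor PU.1, either on the shown strand or as its reverse complement.

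Alox5: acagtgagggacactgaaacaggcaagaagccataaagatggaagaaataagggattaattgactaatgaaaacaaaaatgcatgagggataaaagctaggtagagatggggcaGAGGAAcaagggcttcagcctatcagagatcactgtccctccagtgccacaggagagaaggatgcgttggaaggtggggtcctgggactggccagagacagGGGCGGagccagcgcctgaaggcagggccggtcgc
Alox12: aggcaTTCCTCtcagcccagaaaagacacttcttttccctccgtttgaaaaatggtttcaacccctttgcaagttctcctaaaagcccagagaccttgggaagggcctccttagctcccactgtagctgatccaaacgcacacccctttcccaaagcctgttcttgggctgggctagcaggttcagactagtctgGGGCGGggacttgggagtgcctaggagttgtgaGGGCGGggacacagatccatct
Pla2g4a: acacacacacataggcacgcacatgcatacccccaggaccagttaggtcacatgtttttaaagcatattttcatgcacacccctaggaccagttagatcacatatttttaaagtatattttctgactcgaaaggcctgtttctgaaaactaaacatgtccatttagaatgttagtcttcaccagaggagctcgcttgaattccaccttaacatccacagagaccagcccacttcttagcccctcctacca

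The Alox5 window held 1 GC box and 1 PU.1 core, the Alox12 window 2 GC boxes and 1 PU.1 core, and the Pla2g4a window neither. Of all 32851 RefSeq promoter windows of this length, 32.7% held a GC box and 23.3% a PU.1 core. RefSeq windows were matched for 6 of the 9 members. Of the matched windows not shown, the Lta4h window had 1 PU.1 core, the Ltb4r1 window 1 of each motif and the Ltc4s window neither. Pla2g4a had a further window, also not shown (chr1:149922440-149922689, minus), 38851 bases from the annotated gene start. It held neither motif. A match describes letters in the window, not binding.

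Alox15 (ENSMUSG00000018924, chr11:70344152-70352031, minus strand of mm10, protein-coding), the mouse 12/15-lipoxygenase of macrophages and eosinophils, was barely detected. It had 0, 4 and 0 counts in the Aspirin plus hydrogel libraries, 3, 3 and 0 in the Aspirin libraries and 0 in each of the Control libraries. A count of 0 allows up to 3 counts, which is 0.0554 to 0.0872 CPM in the Control libraries. Its share of the summed FPKM of Alox5, Alox12 and Alox15 was 1.48 ± 2.57% in Aspirin plus hydrogel, 1.16 ± 1.05% in Aspirin and 0% in Control (SD, n = 3 each). Exact two-sided permutation tests gave p = 1.0 for Aspirin plus hydrogel against Aspirin, p = 0.4 for Aspirin against Control and p = 1.0 for Aspirin plus hydrogel against Control, where 0.1 is the smallest p that 3 against 3 libraries allow. The 5 eosinophil markers summed to at most 6.39 CPM in any library. Their granule peroxidase Epx was at 0 in all Aspirin plus hydrogel and all Aspirin libraries and in Control replicates 2 and 3.

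Alox5 and Alox12 were also compared as a pair within each library. Alox5 made up 19.8%, 31.9% and 35.4% of their summed FPKM in the Aspirin plus hydrogel libraries, 62.7%, 70.2% and 50.4% in the Aspirin libraries, and 23.3%, 31.4% and 11.4% in the Control libraries. Alox5 was the larger of the pair in Aspirin replicates 1 and 2, the pair was nearly equal in Aspirin replicate 3 (77 counts of Alox5 and 76 of Alox12), and Alox5 was the smaller in each of the 6 others. In Control replicate 1, the library with keratinocyte markers, the lipoxygenases of skin were also present, with Alox8 at 0.186, Alox12b at 0.207, Alox12e at 0.264 and Aloxe3 at 0.301 FPKM, beside 0.453 FPKM of Alox5; they are outside this share. The means were 29.0 ± 8.16% in Aspirin plus hydrogel, 61.1 ± 9.98% in Aspirin and 22.1 ± 10.1% in Control (SD, n = 3 each). This share was chosen after the values were seen, so it is given without a test.

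Of the enzymes that share leukotriene A4, the hydrolase varied little among libraries in CPM and the synthase more. Lta4h (ENSMUSG00000015889, chr10:93453411-93484875, plus strand of mm10, protein-coding) was at 28.7, 30.2 and 28.5 CPM in the Aspirin plus hydrogel libraries, 34.0, 40.6 and 32.3 CPM in the Aspirin libraries, and 37.5, 30.0 and 29.4 CPM in the Control libraries. Its log2 fold change was -0.29 ± 0.18 for Aspirin plus hydrogel against Aspirin, whose libraries did not overlap, and 0.14 ± 0.18 for Aspirin against Control (95% interval -0.27 to 0.56), whose libraries did. In CPM its highest library exceeded its lowest by 1.43 times, the narrowest range of the 8 members tested. In deposited FPKM it ran from 2.95 to 8.11.

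Ltc4s (ENSMUSG00000020377, chr11:50236461-50238616, minus strand of mm10, protein-coding) was at 4.20, 3.89 and 1.73 CPM in the Aspirin plus hydrogel libraries, 2.78, 3.39 and 3.48 CPM in the Aspirin libraries, and 3.71, 7.16 and 3.57 CPM in the Control libraries. Control replicate 2 was the highest, and the Aspirin libraries lay just under the lowest Control library. The log2 fold change was -0.58 ± 0.42 for Aspirin against Control (95% interval -1.54 to 0.38, adjusted p = 0.792 by edgeR) and 0.03 ± 0.42 for Aspirin plus hydrogel against Aspirin, where the sign turned under several other settings. Without Control replicate 2 the first value was -0.18. Its exons share 268 bases with the antisense gene Gm26542, which averaged 0.186 CPM.

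The log2 ratio of Ltc4s to Lta4h FPKM, with 0.1 added to each, compares the cysteinyl branch with the leukotriene B4 branch inside a library. It averaged -0.67 ± 0.65 in Aspirin plus hydrogel, -0.88 ± 0.22 in Aspirin and -0.24 ± 0.66 in Control (SD, n = 3 each). The groups overlapped in every pairing, and Control replicate 2 weighed on the Control mean: without it the difference was -0.27 in place of -0.64 for Aspirin against Control and -0.05 in place of -0.43 for Aspirin plus hydrogel against Control. Without Aspirin plus hydrogel replicate 3 Aspirin plus hydrogel against Control also gave -0.05. Exact two-sided permutation tests gave p = 0.6 for Aspirin plus hydrogel against Aspirin, p = 0.2 for Aspirin against Control and p = 0.6 for Aspirin plus hydrogel against Control, each 0.9 after Benjamini-Hochberg adjustment over the 6 ratio and share tests.

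**Figure D2:**
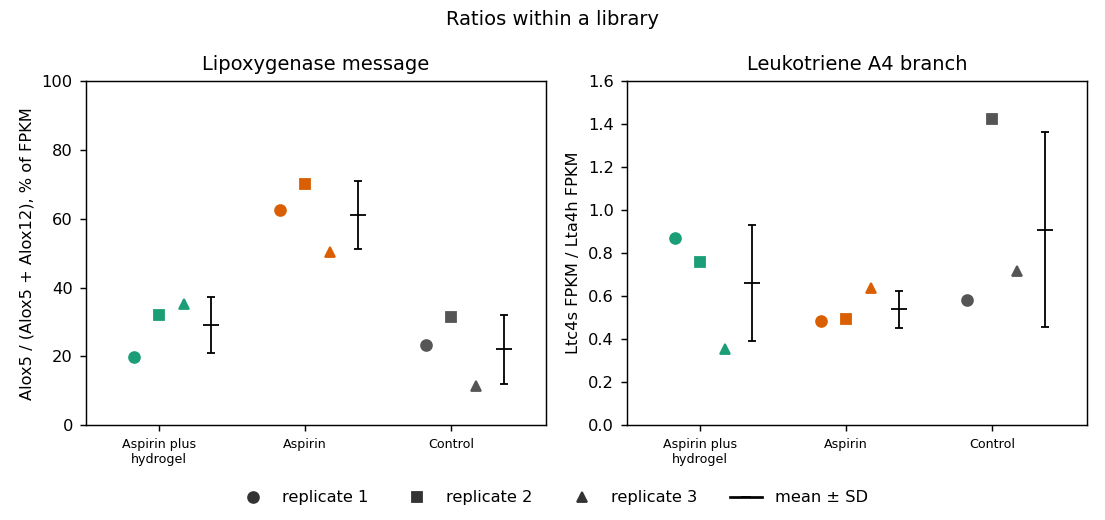
Left, Alox5 as a percentage of Alox5 plus Alox12 FPKM; right, Ltc4s FPKM divided by Lta4h FPKM, in each Aspirin plus hydrogel, Aspirin and Control library, with bars for the mean ± SD of 3 libraries. On the left the Aspirin libraries run from 50.4% to 70.2% and the other 6 from 11.4% to 35.4%; on the right the 3 groups overlap and Control replicate 2 is highest at 1.43.

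Cysltr1 (ENSMUSG00000052821, chrX:106574346-106603679, minus strand of mm10, protein-coding), the receptor for leukotriene D4 and the target of montelukast, had the smallest unadjusted p among the members for Aspirin against Control. It was at 1.67, 2.51 and 2.17 CPM in the Aspirin plus hydrogel libraries, 7.09, 3.11 and 3.94 CPM in the Aspirin libraries, and 2.27, 0.848 and 1.57 CPM in the Control libraries. All 3 Aspirin libraries lay above all 6 others. Aspirin exceeded Control by a log2 fold change of 1.59 ± 0.47 (95% interval 0.53 to 2.66, adjusted p = 0.753 by edgeR), and the value was -1.16 ± 0.47 for Aspirin plus hydrogel against Aspirin (adjusted p = 0.453 by edgeR). Without Aspirin replicate 1, the highest library, these were 1.16 and -0.73.

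Ltb4r1 (ENSMUSG00000046908, chr14:55765962-55768494, plus strand of mm10, protein-coding), the high-affinity leukotriene B4 receptor of neutrophils and other leukocytes, had the fewest counts of the 8 members tested. It had 0, 19 and 11 counts in the Aspirin plus hydrogel libraries, 38, 19 and 70 in the Aspirin libraries, and 43, 17 and 5 in the Control libraries. Aspirin replicate 3 was the highest library, and the groups overlapped in every pairing. Its log2 fold change was -1.75 ± 1.17 for Aspirin plus hydrogel against Aspirin (95% interval -4.41 to 0.90) and 1.24 ± 1.14 for Aspirin against Control (95% interval -1.33 to 3.81), so a difference was not detectable given this spread. Without Aspirin replicate 3 these were -0.94 and 0.42, without Aspirin plus hydrogel replicate 1 the first was -1.15, and without Control replicate 1 the second was 1.98.

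Read against all genes, 0 of 8 members and 0 of 18259 genes (0%) passed an adjusted p of 0.05 by edgeR in any of the 3 comparisons or in the test of any difference among the groups. DESeq2 called 101 genes for Aspirin against Control, 18 for Aspirin plus hydrogel against Control and 157 for Aspirin plus hydrogel against Aspirin, and limma-voom 0, with no member among them. For Aspirin against Control, 4 of 8 members were below an unadjusted p of 0.05 by edgeR, where 1183 genes (6.48%) were. These were Alox5, Alox5ap and Cysltr1 on the higher side, which held 3.09% of all genes, and Alox12 on the lower side, which held 3.39%. For Aspirin plus hydrogel against Aspirin there were 3 of 8 members below that p by edgeR, where 1996 genes (10.9%) were. Alox12 was on the higher side, with 3.32% of all genes, and Alox5ap and Cysltr1 on the lower side, with 7.61%. In the test of any difference among the groups, Alox5ap, Alox12 and Cysltr1 were below that p by edgeR, and so were 6.97% of all genes. Without Aspirin replicate 1 these counts were 2 of 8, Cysltr1 and Alox12, with 5.43% of all genes, and 2 of 8, Alox12 and Alox5ap, with 5.34% of all genes. Without Aspirin replicate 1 and Aspirin plus hydrogel replicate 3 the second count was 0 of 8, with 4.26% of all genes. The first count was also 2 of 8 without Control replicate 2 (3.17% of all genes), without Control replicate 3 (6.01%) or without Aspirin replicate 2 (6.26%), each time Cysltr1 and Alox12. Without Control replicate 1 it was 4 of 8 with 5.37% of all genes, all on the higher side (Pla2g4a, Alox5, Alox5ap and Cysltr1), and Alox12 was not among them. The second count was 1 of 8, Alox5ap, without Aspirin plus hydrogel replicate 1 (8.46% of all genes). With library size alone as the scaling, the first count was 2 (Alox5 and Cysltr1), with 4.88% of all genes, and the second 3 (Pla2g4a, Alox5ap and Cysltr1), with 14.7% of all genes, Alox12 being in neither.

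Counted by libraries that did not overlap in CPM, Aspirin lay above Control for 2 members, Alox5 and Cysltr1 (5.54% of all genes), and below it for 2, Alox12 and Ltc4s (5.44% of all genes). Aspirin plus hydrogel lay above Aspirin for Alox12 (7.46% of all genes) and below it for Alox5, Alox5ap, Lta4h and Cysltr1 (8.75% of all genes). In deposited FPKM, Alox5 in Aspirin replicate 3 (0.423) was below Control replicate 1 (0.453). Alox12 in Aspirin replicate 1 (0.578) was above Control replicate 2 (0.496) and Aspirin plus hydrogel replicate 3 (0.506). The Lta4h and Ltc4s separations were also absent in FPKM. Those of Cysltr1 and Alox5ap, and that of Alox5 for Aspirin plus hydrogel against Aspirin, remained. The log2 fold change was above 0 in 6 of 8 members for Aspirin against Control and in 54% of all genes, and for Aspirin plus hydrogel against Aspirin in 2 of 8 members and 46.7% of all genes. The median log2 fold change of the 8 members was 1.09 for Aspirin against Control, beside 0.05 over all genes tested. It was -0.96 for Aspirin plus hydrogel against Aspirin, beside -0.05 over all genes. Without Aspirin replicate 1 the member medians were 0.73 for Aspirin against Control and -0.72 for Aspirin plus hydrogel against Aspirin. The genes were chosen with earlier results known, so these counts and medians are a description.

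**Figure D3:**
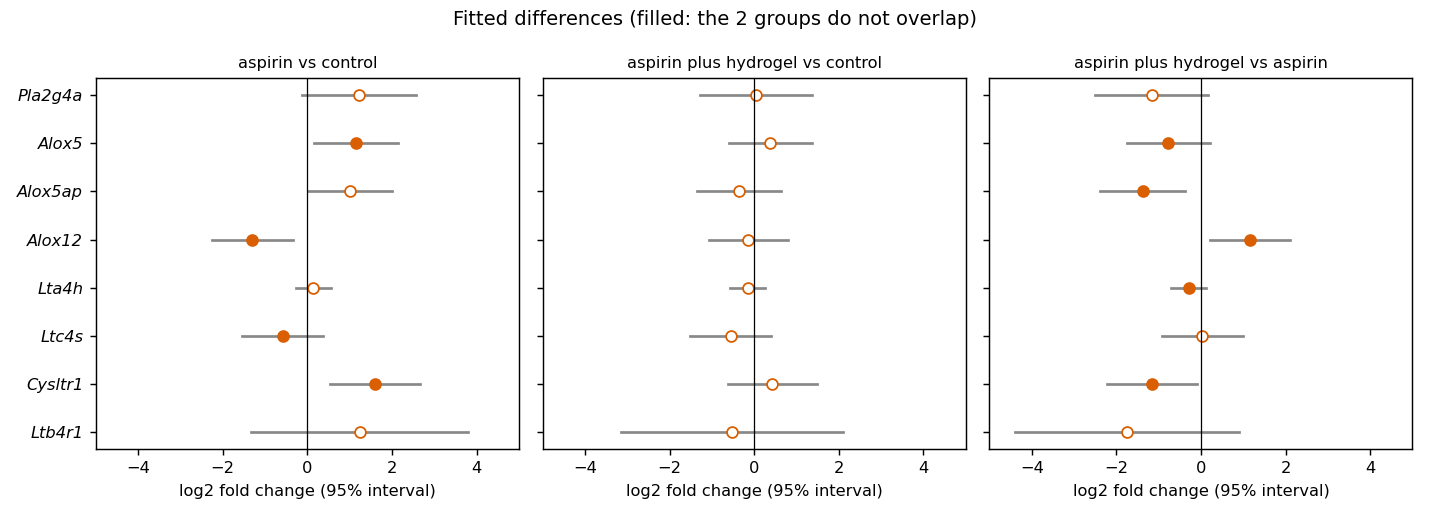
Log2 fold change of the 8 tested members (points) with 95% intervals (lines) for Aspirin against Control, Aspirin plus hydrogel against Control and Aspirin plus hydrogel against Aspirin, each first group over the second. Filled points mark members whose 2 groups of 3 libraries do not overlap in CPM. The middle panel has no filled point and every interval there includes 0, and the outer panels share the Aspirin libraries.

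Aspirin plus hydrogel against Control asked what the combined treatment gave over none. No member was below an unadjusted p of 0.05 by edgeR, where 716 genes (3.92%) were, 1.74% higher and 2.18% lower, and no member's libraries separated, where 6.85% of all genes lay higher and 6.3% lower without overlap. The log2 fold change was above 0 in 3 of 8 members and 47.1% of all genes. The members ranged from -0.55 ± 0.42 for Ltc4s to 0.43 ± 0.46 for Cysltr1, with a median of -0.14 beside -0.03 over all genes. Without Control replicate 1 the median was 0.18 and 5 of 8 members were above 0, and without Control replicate 2 Ltc4s was at -0.15. The 95% intervals bound the difference only loosely for most of the genes: -1.07 to 0.79 for Alox12, -0.60 to 1.38 for Alox5, -1.35 to 0.63 for Alox5ap, -0.62 to 1.48 for Cysltr1 and -1.29 to 1.38 for Pla2g4a. Lta4h had the narrowest interval, from -0.56 to 0.27. These intervals do not show that the groups were equal.

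Some leukotriene genes, among them Alox5 and Alox5ap, are expressed mainly by macrophages and granulocytes, so the markers of those cells are set beside the members. In whole muscle, more cells of a type and more RNA per cell cannot be told apart. The 15 macrophage markers summed to 694 to 1463 CPM in the Aspirin plus hydrogel libraries, 1481 to 3243 CPM in the Aspirin libraries and 751 to 1862 CPM in the Control libraries, with none at 0 in any library. They were higher in 14 of 15 genes for Aspirin against Control and lower in 15 of 15 for Aspirin plus hydrogel against Aspirin. The 15 neutrophil markers summed to 13.5 to 41.7 CPM in the Aspirin plus hydrogel libraries, 42.2 to 484 CPM in the Aspirin libraries and 28.3 to 182 CPM in the Control libraries, and Ly6g was at 0 in 4 of the 9. The 8 mast cell markers, from a main source of Ltc4s, summed to 28.3 to 45.5 CPM in Aspirin plus hydrogel, 29.6 to 59.7 CPM in Aspirin and 39.8 to 45.7 CPM in Control. For Aspirin against Control, 12 of 14 neutrophil markers tested and 7 of 8 mast cell markers were higher, where 54% of all genes were. All 14 and all 8 were lower for Aspirin plus hydrogel against Aspirin, where 46.7% of all genes were higher. For Aspirin plus hydrogel against Control, 14 of 14 neutrophil, 9 of 15 macrophage and 3 of 8 mast cell markers were lower. The part of these cells in the results was not tested.

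Per 1000 CPM of macrophage markers, the Aspirin libraries overlapped those of both other groups for Alox5ap, Alox5 and Cysltr1, and lay below them for Alox12. Alox5ap stood at 8.82 to 10.7 CPM in the Aspirin plus hydrogel libraries, 9.39 to 12.3 CPM in the Aspirin libraries and 8.41 to 15.1 CPM in the Control libraries on that scale. Alox5 was at 0.991 to 2.64 CPM in Aspirin plus hydrogel, 0.858 to 1.48 CPM in Aspirin and 0.312 to 1.52 CPM in Control. Cysltr1 was at 1.38 to 3.12 CPM in Aspirin plus hydrogel, 1.04 to 2.66 CPM in Aspirin and 0.843 to 1.94 CPM in Control. These groups overlapped, and so did Pla2g4a at 2.47 to 4.23 CPM in Aspirin plus hydrogel, 2.56 to 3.53 CPM in Aspirin and 1.31 to 4.15 CPM in Control. Alox12 was at 2.02 to 4.76 CPM in the Aspirin plus hydrogel libraries, 0.377 to 1.47 CPM in the Aspirin libraries and 2.29 to 4.67 CPM in the Control libraries. Ltc4s was at 2.50 to 3.49 CPM in Aspirin plus hydrogel, 0.858 to 2.35 CPM in Aspirin and 1.92 to 9.54 CPM in Control. Its Aspirin libraries thus lay below those of Aspirin plus hydrogel on this scale, whereas in CPM the libraries of these groups overlapped. The divisor was 1481 to 3243 CPM in Aspirin and 694 to 1463 CPM in Aspirin plus hydrogel. That alone lowers the Aspirin values of any gene on this scale, Alox12 and Ltc4s included. Lta4h overlapped, at 20.7 to 41.0 CPM in Aspirin plus hydrogel, 10.5 to 21.8 CPM in Aspirin and 15.8 to 40.0 CPM in Control.

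**Figure D4:**
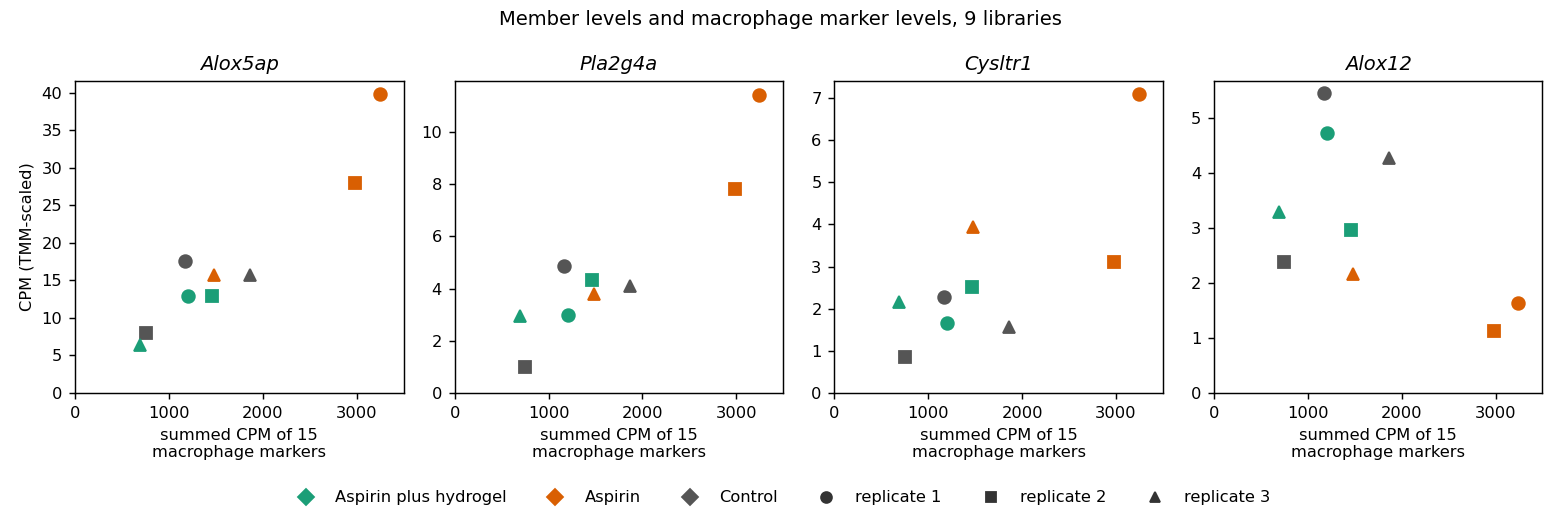
Level of Alox5ap, Pla2g4a, Cysltr1 and Alox12 in CPM against the summed CPM of 15 macrophage markers, 1 point per library, with colours for Aspirin plus hydrogel, Aspirin and Control and shapes for the replicate. Aspirin replicates 1 and 2 have the highest marker sums, 3243 and 2981 CPM, and the highest Alox5ap and Pla2g4a, and the lowest Alox12.

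The genes whose log2 CPM ran most alike with each member over the 9 libraries were taken from 13016 genes averaging at least 1 CPM. For Alox5ap the myeloid lectin receptor Clec4a2 was among them (Pearson r = 0.984). For Cysltr1 they were Mdm1 (0.966) and Zfp729b (0.960), for Pla2g4a Nfya (0.964) and Zfp65 (0.962), and for Alox5 Cdan1 (0.926) and Hnrnph1 (0.891). For Alox12 they were Apol10b (0.927) and Zfp827 (0.916), for Lta4h Shox2 (0.922) and Tyro3 (0.919), and for Ltc4s Mc2r (0.958) and Cnnm2 (0.952). Without Aspirin replicate 1 these values ranged from 0.900 to 0.973. By Spearman rank correlation over the 9 libraries the values ranged from 0.667 (Tyro3 with Lta4h) and 0.733 (Zfp65 with Pla2g4a) up to 0.967 (Mdm1 with Cysltr1, Cnnm2 with Ltc4s). They are the top of many candidates over 9 points that share groups and composition, so they are a description.

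Of 32 other genes of arachidonic acid release, lipoxygenase, leukotriene and lipoxin handling, 26 passed the filter and none passed the adjusted threshold by edgeR in any comparison. For Aspirin against Control, 14 had a higher and 12 a lower value, where 54% of all genes were higher. Of these, 2 of the higher and 1 of the lower genes were below an unadjusted p of 0.05 by edgeR. Over all genes 3.09% were higher and 3.39% lower at that p. Fpr2, the receptor for lipoxin A4 and formyl peptides, was at 0.725, 0.725 and 0 CPM in the Aspirin plus hydrogel libraries, 10.4, 2.55 and 5.54 CPM in the Aspirin libraries, and 1.14, 0.245 and 0.494 CPM in the Control libraries. The Aspirin libraries were all higher than the other 6. Its log2 fold change was 3.28 ± 1.11 for Aspirin against Control and -3.65 ± 1.13 for Aspirin plus hydrogel against Aspirin (adjusted p = 0.753 and 0.453 by edgeR).

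Ephx2, the soluble epoxide hydrolase of arachidonic acid epoxides, was at -1.31 ± 0.42 and the lysosomal phospholipase gene Pla2g15 at 0.83 ± 0.32 (log2 fold changes for Aspirin against Control). For Aspirin plus hydrogel against Aspirin, 9 of the 26 were higher and 17 lower, where 46.7% of all genes were higher. Below an unadjusted p of 0.05 by edgeR were 1 higher gene (3.32% of all genes) and 4 lower genes (7.61% of all genes). Among these were Ptgr1, which inactivates leukotriene B4, at -1.07 ± 0.34, and Abcc1, the exporter of leukotriene C4, at 0.74 ± 0.24. For Aspirin plus hydrogel against Control, 10 were higher and 16 lower, where 47.1% of all genes were higher. None was below that p, where 3.92% of all genes were. The smallest p there belonged to Ptgr1 at -0.64 ± 0.34, the second cysteinyl leukotriene receptor Cysltr2 at -1.91 ± 1.02 and the epidermal gene Aloxe3 at -1.48 ± 0.89. Cysltr2 had only 6, 4 and 0 counts in the Aspirin plus hydrogel libraries and 10, 22 and 13 in the Control libraries. Aloxe3 had 95 counts in Control replicate 1, the library with keratinocyte markers. The leukotriene E4 receptor gene Oxgr1 had 0 counts in all 9 libraries.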

How the data were processed

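Per the labels' protocols, leg muscle RNA of 9 mice went into SMARTER mRNA libraries. Raw counts per gene and FPKM values were deposited by the authors, each for all libraries. The submitters' processing notes name mm10; aligner, counter, annotation and strand setting were not given in the sources used. In 10432 well-counted genes, 99.2% of values had a ratio of scaled counts to deposited FPKM within 1% of 1 constant per gene. Rows were found by the deposited symbol. Coordinates are from GENCODE vM21 and promoter windows from RefSeq (GRCm38.p6).

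All 9 libraries entered 1 edgeR quasi-likelihood fit (edgeR 4.0.16, R 4.3.3) on counts with TMM scaling, filterByExpr (minimum count 10, total 15) and group as the only term, with Benjamini-Hochberg adjustment over 18259 genes at 0.05. CPM use TMM-scaled library sizes. Ratios were tested by exact permutation (scipy 1.17.1). Standard errors and 95% intervals come from the fit. The common biological coefficient of variation was 0.503. A count of 0 allows up to 3 counts, or 0.0554 to 0.100 CPM; such floors cover counting error only. All pairs of libraries differed by more than sampling noise (smallest chi-square per degree of freedom 70.5). The design text describes separate mice.

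The members and lists were chosen with earlier results of these data known. Genes named beside the members are the 3 of smallest unadjusted p per comparison from a list of 32 pathway genes, and per member averaging at least 1 CPM the 2 most correlated genes, predicted and pseudogene names left out (1 of these genes is not reported here); Oxgr1 is named for its absence. Alternatives were other scalings, no filter, limma-voom, limma-trend on log2 FPKM (limma 3.58.1), DESeq2 1.42.0, the replicate number as a block, 2 groups only and leaving libraries out. The fit was tested on simulated data for Aspirin against Control. It recovered 0% of 2-fold, 29.9% of 4-fold and 45.5% of 8-fold changes. The absence of a member below the adjusted threshold therefore does not show that the members were unchanged.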

Additional observations from a re-analysis of the deposited data

How the results depend on the processing

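No member passed an adjusted p of 0.05 under any alternative run, in any of the 3 comparisons. DESeq2 called 101 genes of all those tested for Aspirin against Control, 18 for Aspirin plus hydrogel against Control and 157 for Aspirin plus hydrogel against Aspirin, none a member, where edgeR called 0. In the last comparison, leaving out 1 library gave 0 to 2 genes (2 without Aspirin replicate 3), and the replicate block gave 1. Over the 3 groups the 9 same-number correlations were -0.432 to 0.548, with 7 over 0.1, and other pairs ran from -0.601 to 0.581. All 3 same-number pairs of Aspirin with Control were over 0.1 (0.127 to 0.548). With 3 libraries per group this check cannot settle whether the replicate numbers pair the libraries. With the replicate block the same 4 members were below an unadjusted p of 0.05 by edgeR for Aspirin against Control, and 2, without Cysltr1, for Aspirin plus hydrogel against Aspirin. Scaling by library size only shifted the median log2 fold change over all genes by 0.227 for Aspirin against Control, -0.224 for Aspirin plus hydrogel against Control and -0.458 for Aspirin plus hydrogel against Aspirin. No member changed sign for Aspirin against Control. For Aspirin plus hydrogel against Control, Pla2g4a was at -0.22 with library size alone, -0.045 on log2(FPKM + 1) and -0.39 to 0.43 when 1 library was left out; over the same omissions Alox12 ran from -0.41 to 0.14 and Ltb4r1 from -1.30 to 0.23. For Aspirin plus hydrogel against Aspirin, Ltc4s was at -0.33 with library size alone, -0.049 with the replicate block, -0.027 by limma-voom, -0.47 and -0.32 on log2(FPKM + 0.1) and log2(FPKM + 1), and -0.19 to 0.31 with 1 library left out. In that comparison the difference in the Ltc4s to Lta4h log2 ratio ran from -0.019 to 0.59, and that in the Alox15 share from -1.16 to 1.06 percentage points, with 1 library left out; the share differed by -0.143 points on CPM. The cause of these turns was not tested. The difference in the Alox5 share between Aspirin and each other group, examined after seeing the data, kept its sign on CPM and with any 1 library left out. Alox15 had 0 to 4 counts per library, too few to compare the groups.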
